A study of Homo sapiens with 4 samples.

Results

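The genes of the MYC, MAX and MXD network were followed through the lists of genomic regions in which trimethylation of histone H3 at lysine 4 (H3K4me3) was reduced after treatment with Tat-SID. The 9 members are MYC, MAX, MXD1, MXI1, MXD3, MXD4, MNT, MGA and MLX, out of 64486 annotated genes. A member was counted if its gene start, or any of its annotated transcription start sites (TSS), was within 3 kb of a reduced region. All 9 were found in the annotation. At 2.5 μM Tat-SID, 1 of the 9, MYC, had such a region, and the region covered every TSS of the gene. At 1 μM, 0 of the 9 did.

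MYC is a transcription factor that drives growth and proliferation, and it binds DNA as a dimer with MAX at a short palindromic sequence called the E-box. The MXD proteins (MXD1, also called MAD, MXI1, MXD3 and MXD4) and MNT compete with MYC for MAX and repress the same kind of gene. They do so by bringing in the corepressor SIN3 through a short helix at or near the start of the protein, the SIN3 interaction domain (SID). MGA is a large MAX partner that belongs to a Polycomb repressor complex, and MLX is a MAX-like protein that pairs with the glucose-sensing factor MondoA and with some of the MXD proteins.

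The link between these genes and the treatment is the peptide itself. Tat-SID carries amino acids 5 to 24 of MAD, the product of MXD1, joined to a stretch of the HIV Tat protein that brings it into the nucleus, and acts as a decoy for the second amphipathic helix domain of SIN3. MDA-MB-231 cells, an established human line of triple-negative breast cancer, were left untreated or were given Tat-SID at 1 μM or 2.5 μM for 3 days. Mononucleosomes released with micrococcal nuclease were precipitated with an H3K4me3 antibody, in 1 library per condition, beside 1 library of input DNA from untreated cells. A scrambled peptide was not part of this ChIP-Seq comparison, so the groups differ by the presence of any peptide as well as by its sequence.

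H3K4me3 marks the starts of transcribed genes. The lists give where a region began and ended, without a signal, a fold change or an FDR, and both doses were called against the same untreated library. They held 141 reduced regions at 1 μM, with a median length of 8599 bp, 2063 reduced regions at 2.5 μM, with a median length of 4949 bp, and 3 increased regions at 2.5 μM. With 1 library per condition there is no replicate check, no difference between conditions was tested, and sequencing depth is unknown. A gene without a region is one whose change, if any, did not pass the threshold of the caller. The lists cannot show marker genes of the cell line, nor whether a member carried H3K4me3 in untreated cells. None of the 3 increased regions was near a member: those on the same chromosome were 127 Mb from MXD3, 19.9 Mb from MNT and 18.5 Mb from MLX, and the other 6 members were on chromosomes without one.

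The coding sequence of the SID is shown first, since it is the part of a member that the peptide copies. Coding sequences of GENCODE transcripts on GRCh37 were translated and searched for the stretch most like residues 5 to 24 of MXD1. In the lines that follow, each sequence is read along the coding strand, and capitals mark codons that give the same amino acid as MXD1 at that position.
MXD1 (chr2:70142475-70142534, plus strand): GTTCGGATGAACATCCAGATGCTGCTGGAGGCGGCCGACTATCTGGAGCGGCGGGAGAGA
MXI1 (chr10:111985981-111986040, plus strand): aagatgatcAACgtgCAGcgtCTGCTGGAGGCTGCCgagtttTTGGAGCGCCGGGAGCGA
MXD3 (chr5:176738763-176738822, minus strand): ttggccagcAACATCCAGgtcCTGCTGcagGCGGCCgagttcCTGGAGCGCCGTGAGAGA
MXD4 (chr4:2263645-2263704, minus strand): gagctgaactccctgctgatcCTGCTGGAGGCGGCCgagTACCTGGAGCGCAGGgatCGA
MNT (chr17:2303953-2304006, minus strand): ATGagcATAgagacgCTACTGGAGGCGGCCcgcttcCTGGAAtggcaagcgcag

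Each of these 5 stretches lies within 1 coding exon. Against the 20 residues of MXD1, the best stretch of MXI1 had 13 identical residues, that of MXD3 had 13, that of MXD4 had 11 and that of MNT had 9. The stretches run in capitals through the middle of each line, and 6 residues were the same in all 5 proteins. The stretch of MNT starts at its first residue, so that only 18 of the 20 positions could be compared.

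Within the group, MXI1 and MXD3 were the most alike, with 14 identical residues, and MNT shared 8 with each of MXI1, MXD3 and MXD4. At the level of bases, MXD3 shared 45 of 60 with MXD1, MXI1 shared 43 and MXD4 shared 43. MNT shared 37 of the 54 bases of its shorter stretch. MXI1 has alternative first exons. The sequence shown belongs to MXI1-201, where the stretch is residues 5 to 24, whereas in the canonical MXI1-202 the best stretch is residues 69 to 88, with 11 identical residues. A match of at least 8 residues was found in 7 of its 36 coding transcripts. In the 4 members not known as SID proteins, the best stretch had 6 identical residues in MYC, 5 in MAX, 6 in MGA and 4 in MLX. The stretches of all 5 SID genes lay outside the reduced regions of both doses.

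**Figure D1:**
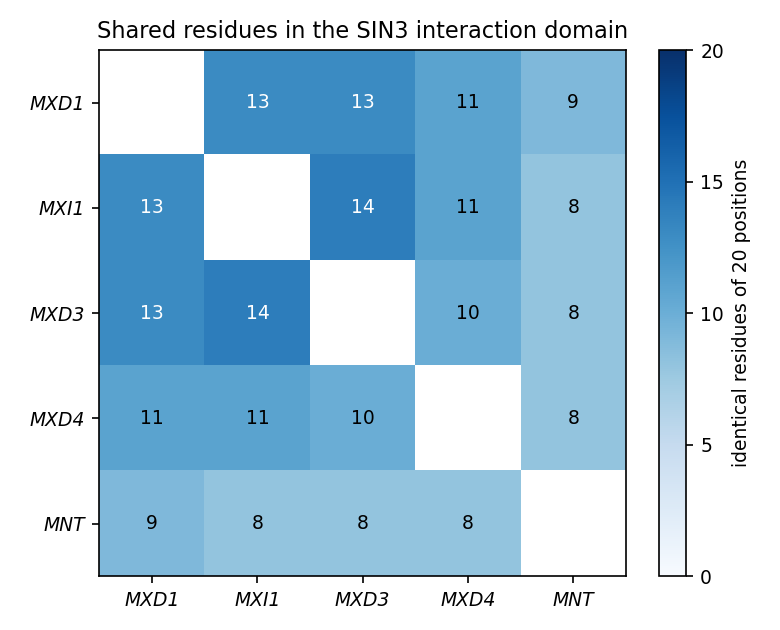
Identical amino acids in the SIN3 interaction domain for each pair of the 5 members that carry one, over the 20 positions of MXD1 residues 5 to 24; the colour scale runs from 0 to 20 and the diagonal is left blank. MXI1 and MXD3 share 14 residues, and every pair that includes MNT shares 8 or 9, with only 18 positions compared.

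MYC had the only reduced region within 3 kb of a member's TSS. The gene (ENSG00000136997) lies on the plus strand of chromosome 8 of GRCh37, at chr8:128747680-128755197, with 15 annotated transcripts that start at 14 different positions. At 2.5 μM the reduced region ran over chr8:128745651-128754549, from 2029 bp upstream of the gene start to 6869 bp downstream, and all 14 TSS lay inside it. Measured from the TSS of the canonical transcript MYC-206 it extended 2826 bp upstream and 6072 bp downstream. It held exons 1 and 2, both introns and part of exon 3 of this 3-exon transcript, and 91.4% of the gene body. With 8899 bp it was longer than 93.7% of the 2063 reduced regions. The region thus reached from the promoter across most of the gene into its last exon.

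The MYC region is shared with a neighbour, and a second region lies downstream. CASC11, a long non-coding RNA gene on the opposite strand, starts at 128751233 within MYC, and 4 of its 5 TSS were inside the same region. To which of the overlapping genes the mark belonged cannot be told from ChIP-Seq. The other reduced region within 1 Mb of MYC was chr8:128805901-128813999, of 8099 bp, from 58221 to 66319 bp downstream of the MYC start. It lay over the start of PVT1, a long non-coding RNA gene that is often co-amplified with MYC, and held 58 of the 132 TSS annotated for it. MYC had 1 other protein-coding gene start within 500 kb, which had no region. On chromosome 8 as a whole, 88 of 709 protein-coding genes (12.4%) were counted at 2.5 μM. At 1 μM the nearest reduced region to MYC was 9.62 Mb away, over the start of EXT1, a heparan sulphate polymerase gene.

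These counts are read against all genes. At 2.5 μM, 3420 of 64486 annotated genes had a region by the same rule, which is 5.30% (exact Clopper-Pearson 95% confidence interval 5.13% to 5.48%, covering counting error over genes only), and 2178 of 20176 protein-coding genes, which is 10.8%. The 1 of 9 members is 11.1%, near the share of protein-coding genes. With a window of 10 kb in place of 3 kb the count was 2 of 9, MYC and MGA. Beside it were 6.35% of all genes and 11.6% of 20098 protein-coding genes, those outside chromosomes Y and M. At 1 μM, 232 genes or 0.360% were counted (0.315% to 0.409%), and 0.674% of protein-coding genes, beside the 0 of 9 members.

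**Figure D2:**
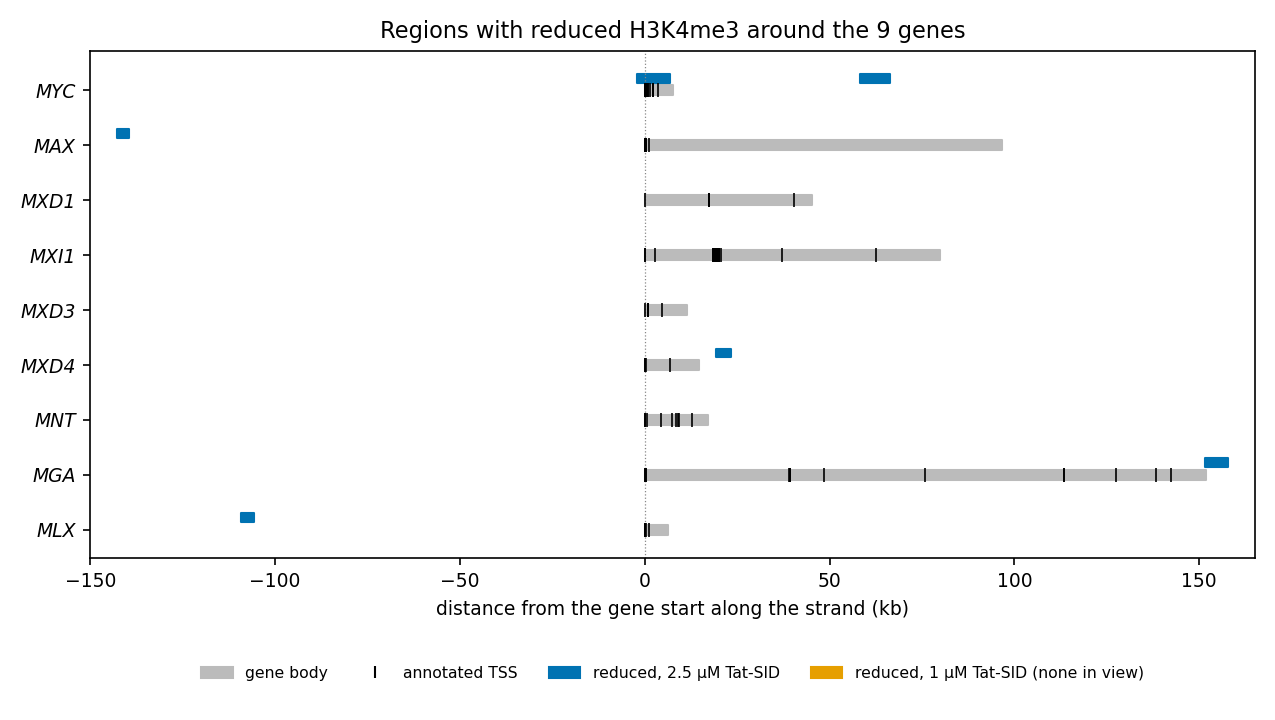
Gene bodies (grey), annotated TSS (black ticks) and regions of reduced H3K4me3 after 2.5 μM Tat-SID (blue) for the 9 members, by distance in kb from the gene start along the strand. Only the MYC row has a region over its TSS; regions in the rows of MXD4 and MGA lie beyond or at the 3′ end of the gene, those of MAX and MLX lie more than 100 kb upstream, and no region of the 1 μM list falls in view.

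MAX, the shared partner of the network, lies at chr14:65472892-65569413 on the minus strand, with 14 distinct TSS. Its nearest reduced region at 2.5 μM was 140 kb upstream, at chr14:65708951-65712299, and 28.9% of protein-coding genes were at least as close to a region. That region was 3349 bp long, overlapped only the gene ENSG00000258760, and had no TSS within 3 kb. MAX was the member nearest to a region at 1 μM, at 308 kb, where the region lay over the start of FUT8, the gene of the enzyme that adds core fucose to N-glycans. FUT8 was also counted at 2.5 μM, and was the only one of 8 protein-coding genes within 500 kb of MAX that was.

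Of the repressors, none of the 4 MXD genes and not MNT had a reduced region within 3 kb. MXD4 was the nearest. It lies at chr4:2249159-2263836 on the minus strand, and the region chr4:2240551-2244599 was 12.4 kb from its nearest TSS and 19.2 kb from its gene start, beyond the 3′ end of the gene. This region, of 4049 bp, lay over the starts of HAUS3, which encodes a subunit of the spindle complex augmin, and of POLN, a DNA polymerase gene. In protein-coding genes on chromosome 4 the share counted was 19.4%.

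MXI1, at chr10:111967363-112047123, has the most varied starts of the group, with 37 distinct TSS from 38 transcripts. None of them was within 3 kb of a region, and the nearest region was 225 kb from the last TSS and 288 kb from the gene start, over DUSP5, a nuclear phosphatase gene for ERK, and its divergent transcript DUSP5-DT. MXD1, at chr2:70124820-70170077, had its nearest region at 307 kb, over the start of TIA1, which encodes an RNA-binding protein of stress granules, and of C2orf42. The canonical TSS of MXD1 lies 17421 bp downstream of the annotated gene start, and was 330 kb from that region. MNT, at chr17:2287367-2304398, and MXD3, at chr5:176728462-176739758, were farther from a region than most genes, at 870 kb and 1311 kb. The region nearest to MNT lay over INPP5K, an inositol phosphatase gene, and the one nearest to MXD3 over CLK4, a kinase gene of splicing factors. Neither MNT, with 13 other protein-coding gene starts within 500 kb, nor MXD3, with 22, had a counted gene in that span.

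MGA, at chr15:41913332-42065279 on the plus strand, was touched by a reduced region at its other end. The region chr15:42064951-42071049, of 6099 bp, covered the last bases of the 3′ end of MGA and the start of MAPKBP1, a gene for a scaffold protein of JNK signalling. Its distance to the MGA gene start was 152 kb and to the canonical TSS 112 kb. The distance of 9.35 kb to the nearest annotated TSS belongs to MGA-212, a short transcript without an annotated coding sequence that starts near the 3′ end. MAPKBP1, NUSAP1 and OIP5 were the counted genes among 19 protein-coding genes within 500 kb of MGA.

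MLX, at chr17:40719090-40725257, had its nearest region 106 kb upstream, at chr17:40609951-40613249, over the start of ATP6V0A1, a subunit gene of the vacuolar proton pump. ATP6V0A1 was 1 of 43 protein-coding genes within 500 kb of MLX and the only one counted. Chromosome 17, which holds both MLX and MNT, had a counted share of 7.06% of its protein-coding genes, the lowest of the chromosomes that hold a member.

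The order of the members by distance at 2.5 μM was MYC, MGA, MXD4, MLX, MAX, MXI1, MXD1, MNT and MXD3. The median was 140 kb, beside 380 kb over 20098 protein-coding genes, with quartiles of 106 kb and 1000 kb. Within 10 kb of a region were 11.6% of protein-coding genes, and 25.0% were beyond 1000 kb. MXD3 was the only member in the latter range. At 1 μM, distances of the members ran from 0.308 Mb for MAX to 27.3 Mb for MNT, beside a median of 7.95 Mb over the protein-coding genes of the 19 chromosomes with a region. The distances say how far a member was from the next listed region and carry no size of change.

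**Figure D3:**
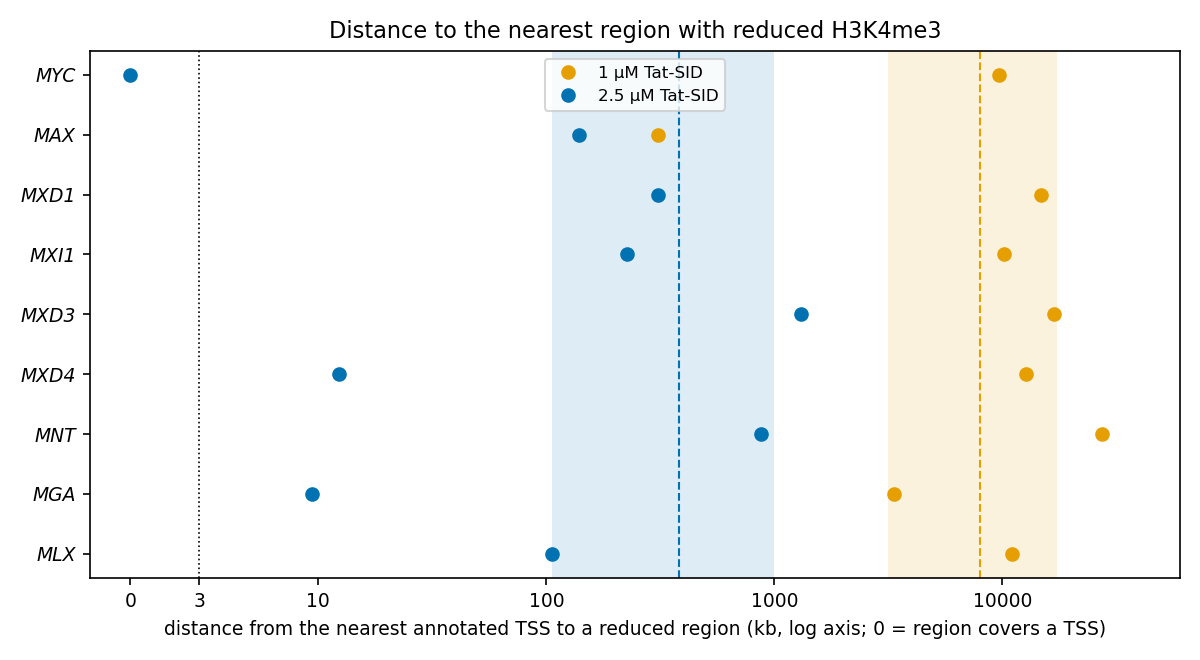
Distance in kb, on a log axis, from the nearest annotated TSS of each of the 9 members to the nearest region with reduced H3K4me3 at 1 μM (orange) and 2.5 μM (blue). Shading gives the quartiles and dashed lines the medians of protein-coding genes at each dose (380 kb at 2.5 μM), and the dotted line marks 3 kb; MYC at 2.5 μM, drawn at 0, is the only point to its left.

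Promoter sequence was described 1 kb on each side of the canonical TSS. GC content in these windows ran from 55.4% for MGA and 56.3% for MXI1 to 73.7% for MXD4, beside a median of 55.9% over 20098 protein-coding genes (quartiles 49.9% and 61.6%). Observed over expected CpG, a ratio that is high in CpG islands, ran from 0.59 for MXI1 to 0.89 for MXD4, beside a median of 0.635. GC content was above its median in 8 of the 9 promoters and the CpG ratio in 6 of the 9. The MYC promoter had a GC content of 56.9% and a ratio of 0.77, close to the medians of 55.6% and 0.746 over the counted genes. MGA and MAX had ratios of 0.82 and 0.75 and no region.

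**Figure D4:**
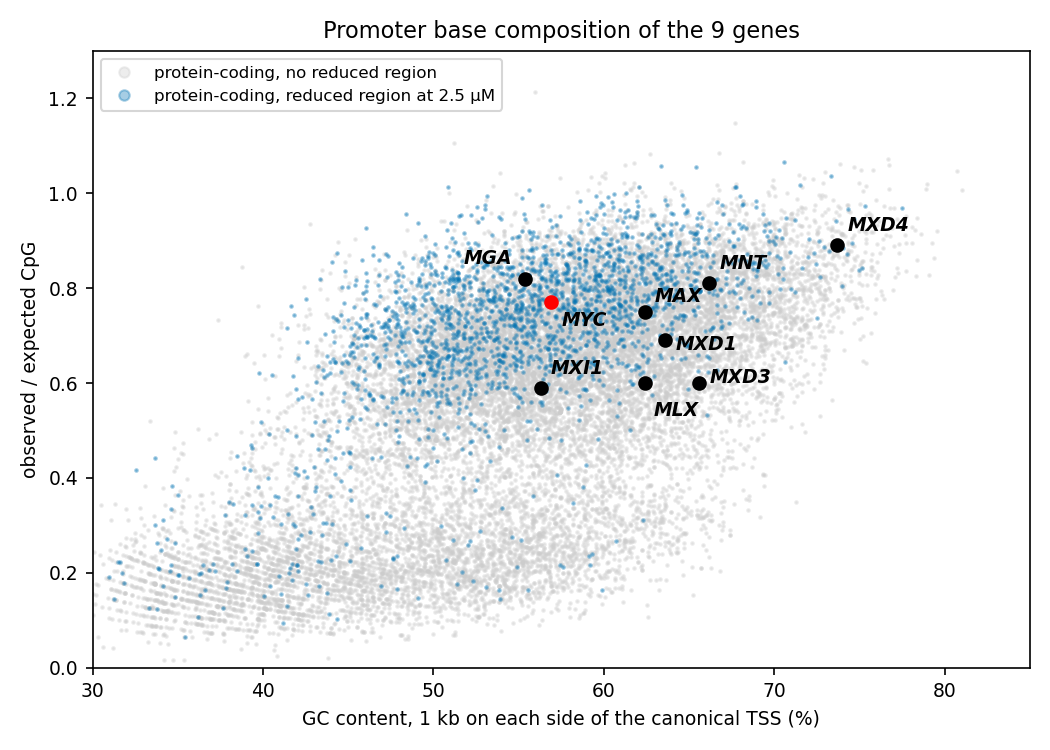
GC content (%) against observed over expected CpG, 1 kb on each side of the canonical TSS, for protein-coding genes with (blue) and without (grey) a reduced region at 2.5 μM; the 9 members are labelled, MYC in red and the other 8 in black. MYC lies among the counted genes at 56.9% and 0.77, as does MGA, which was not counted, and MXD4 lies at the GC-rich edge with 73.7%.

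The E-box is the 6-letter sequence CACGTG, a palindrome that reads the same on both strands, and was searched in windows of 2 kb around and 300 bases (250 before and 50 after) at the canonical TSS. Matches are described for 8 of the 9 members, and the counts below leave out the other one. Within the 300 bases, MXD4, MNT and MLX had 1 match each, and 8.74% of all protein-coding promoters had at least 1. These 3 sites are printed with 12 bases on each side. They are matches of letters in the promoters of the network itself, and binding of MYC, MAX or MXD proteins to them was not measured. Capitals mark the E-box, and each site is read along the strand of its gene.
MXD4 (chr4:2264057-2264086, minus strand): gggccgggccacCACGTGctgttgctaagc
MNT (chr17:2304530-2304559, minus strand): ccctgcccgggcCACGTGtgcgcgcgccgg
MLX (chr17:40719056-40719085, plus strand): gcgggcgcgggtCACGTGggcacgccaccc

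The sites lie 238 bp upstream of the canonical TSS in MXD4, 193 bp upstream in MNT and 50 bp upstream in MLX, and none was in a reduced region. In the 2 kb windows, among these 8 members, MNT had 2 matches, and MXD1, MXD3, MXD4 and MLX had 1 each, while 29.2% of protein-coding promoters had at least 1. MYC, MXI1 and MGA had none in either window. The whole MYC region of 8899 bp also held none, and 911 of the 2063 reduced regions (44.2%) held at least 1. Its GC content of 52.0% was above that of 92.3% of the regions, whose median was 45.1%. A lack of a match says only that these letters are not in the window. Among protein-coding genes, 11.6% of those with an E-box in the 300 bases were counted at 2.5 μM (exact 95% interval 10.1% to 13.1%) and 10.8% of those without (10.3% to 11.2%), 2 intervals that overlap.

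Beyond the members, 91 genes of the wider network were followed in 8 lists. At 2.5 μM, 20 of the 91 (22.0%) were counted, above the 10.8% of protein-coding genes, and at 1 μM 1 was. These shares were not matched for the CpG ratio of the promoter. By that ratio the share of protein-coding genes ran from 2.87% under 0.4 to 22.9% from 0.8 upward. The lists were drawn up from general knowledge of these pathways, but with earlier results of these data known. No test was made of the difference between 22.0% and 10.8%. The counted genes fell in 6 of the lists, and both lists of other factors that bind the E-box had 0.

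Of 30 genes known to be activated by MYC, 8 were counted (26.7%). They were ODC1, the first enzyme of polyamine synthesis; NPM1, a nucleolar chaperone; NOP56 and NOP58, core proteins of box C/D small nucleolar ribonucleoproteins; EIF2S1, a translation initiation factor; HSPD1 and HSPE1, the mitochondrial chaperonin pair; and RCC1, the exchange factor of RAN. HSPD1 and HSPE1 are divergent neighbours and share 1 region, chr2:198360601-198367849, at their canonical TSS, so that the 8 genes are not 8 separate observations. The annotated gene start of HSPD1, at chr2:198381461, lay inside another reduced region. The ODC1 region, chr2:10584801-10590599, held exons 1 to 3 of 12, and the NPM1 region, chr5:170813701-170819249, held exons 1 to 4 of 11. The NOP56 region, chr20:2631501-2635849, held exons 1 to 5 of 12 together with several small nucleolar RNA genes of its introns. NCL, LDHA, CAD and TERT were among the 22 that were not counted.

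E-boxes inside these regions are shown for 3 of the MYC-activated genes, taken as examples from those with a match. The MYC region holds none, and 44.2% of the 2063 reduced regions held at least 1. Capitals mark the E-box and each site is read along the strand of its gene.
HSPE1 (chr2:198365069-198365098, plus strand): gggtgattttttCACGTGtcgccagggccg
ODC1 (chr2:10588150-10588179, minus strand): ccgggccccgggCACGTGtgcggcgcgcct
NOP56 (chr20:2633643-2633672, plus strand): acagcgcgctccCACGTGgccggccgagcg

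The HSPE1 site lies 22 bp upstream of its canonical TSS, that of ODC1 286 bp downstream and that of NOP56 377 bp downstream. ODC1 and NOP56 each had 3 matches in their 2 kb windows, and NPM1, with 2, had them 11 bp apart. EIF2S1 had none. All the other counted MYC-activated genes, with NOP58, HSPD1, HSPE1 and RCC1 among them, had at least 1 in the 2 kb window. Of all protein-coding promoters 29.2% had at least 1, and the difference was not tested. Among protein-coding genes counted at the higher dose 29.0% had at least 1 in this window, and among those not counted 29.2%. Matches in the MYC-activated genes that were not counted are not described here. Whether matches go with reduced regions within this list was therefore not tested.

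Of 5 genes known to be repressed by MYC, 2 were counted. GADD45A, a growth arrest gene, had a region of 6649 bp that held all 4 of its exons. NDRG1, a differentiation gene, had a region of 4599 bp at its canonical TSS. CDKN1A, the p21 gene, was 75.4 kb from a region. Some genes of each list, activated and repressed, were thus among those counted. Among all protein-coding genes 10.8% were counted, and no difference from that share was tested.

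MYC cofactors and regulators of MYC protein turnover had 5 of 20 genes counted (25.0%). These were HUWE1 and MYCBP2, ubiquitin ligases; PIM1 and AURKA, kinases; and CIP2A, an inhibitor of the phosphatase PP2A that stabilises MYC. The PIM1 region held exons 1 to 4 of 6 and the HUWE1 region exons 1 to 3 of 85. The ligase gene FBXW7 was 242 kb from a region.

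SIN3A itself was counted. Of 9 genes for SIN3 and other SID proteins, 3 had a region at 2.5 μM (33.3%): SIN3A, HBP1 and KLF9. SIN3A is the scaffold to which the peptide binds, and its region of 7849 bp, chr15:75741651-75749499, began 5468 bp upstream of the canonical TSS and ended 2380 bp past it. HBP1 and KLF9 are repressors that use a SID. PHF12, the gene of PF1, was 190 kb from a region and SIN3B 167 kb. The 4 MXD genes and MNT thus gave 0 of 5 counted SID genes, beside 2 of 7 for the other SID genes of the list. Among all protein-coding genes 10.8% were counted. These counts are small, and no difference among them or from that share was tested.

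The MGA-containing Polycomb complex and the targets of MondoA and MLX had 1 counted gene each. CBX3, which encodes the heterochromatin protein HP1 gamma, was the only 1 of 12 genes of the MGA-containing Polycomb complex with a region, and the only one of the 91 genes counted at 1 μM. The region was identical at both doses, chr7:26234801-26246599, with 11799 bp, and is shared with the divergent gene HNRNPA2B1. At 2.5 μM it was longer than 98.4% of the reduced regions. TXNIP, the best known target of MondoA and MLX, had a region of 6249 bp over all 9 of its exons, while ARRDC4, a related arrestin gene, was 1284 kb from one.

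Other members of the E-box family had no region. MYCN, MYCL, MLXIP (MondoA) and MLXIPL (ChREBP) gave 0 of 4, at distances from 74.1 kb for MLXIPL to 1849 kb for MYCN. USF1, USF2, TFE3, TFEB, TFEC, MITF, SREBF1, SREBF2 and TFAP4 gave 0 of 9. MYC was thus the only one of the 22 E-box factor genes looked at here whose TSS had a reduced region within 3 kb. The 22 are the 9 members and 13 relatives. Among all protein-coding genes 10.8% were counted, and no difference from that share was tested.

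**Figure D5:**
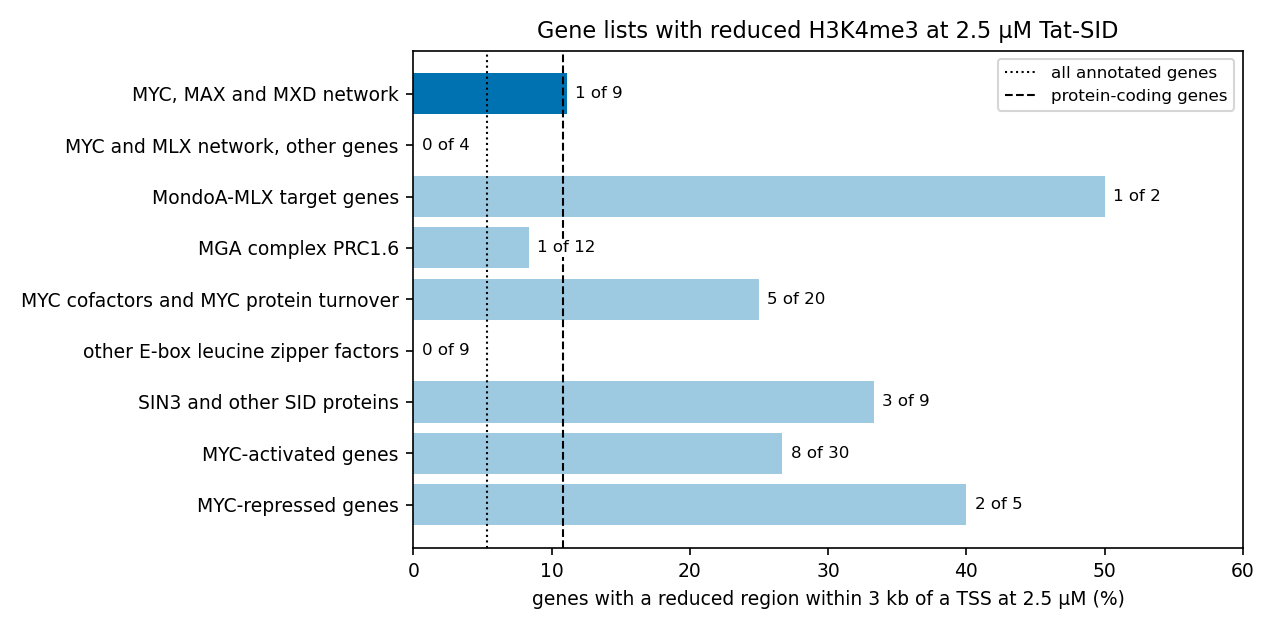
Share (%) of the genes in each list with a region of reduced H3K4me3 no more than 3 kb from a TSS at 2.5 μM Tat-SID, with counts beside the bars; the dotted line is the share of all annotated genes (5.30%) and the dashed line that of protein-coding genes (10.8%). MYC-activated genes (8 of 30) and MYC cofactors (5 of 20) lie above both lines, the members (1 of 9) lie at the dashed line, and both lists of other E-box factors are at 0.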

How the data were processed

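The authors performed native H3K4me3 ChIP-Seq, aligned reads with Bowtie (version 1.0.0) to hg19 after FastQC (version 0.10.0), made signal tracks with MACS2 (version 2.1.0) and called changed regions with SICER-df, as the methods and the submitters' processing notes state. The deposited lists hold only chromosome, start and end on hg19 (GRCh37), with no measured value; the FDR of the calls is given as stricter in the study's results and file labels than in its methods. Depth per library is unknown here. Increased regions at 1 μM were not analysed here.

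Regions were placed on genes of GENCODE release 44 mapped to GRCh37, where the authors used RefSeq. Positions are printed from 1. Genes were counted by a distance of at most 3 kb between a region and the gene start or any transcript TSS. The members, the gene lists and the rules were chosen with earlier results of these data known. Genes named are all 9 members, every listed gene counted at either dose, named genes that share a region with a member, and the gene nearest to the region nearest to each member; other listed genes that were not counted are named as examples, chosen after their values were seen. Distances were tested on simulated data, with 200 of 200 recovered. Percentiles and medians of distance, and GC content, CpG ratio and E-boxes, cover 20098 protein-coding genes (chromosomes Y and M left out), at the canonical transcript. E-box matches of 1 member are not reported here. SID stretches were found by ungapped comparison of translated coding sequences. The minimum of 8 identical residues, and the 6 residues by which a stretch could run past the first residue, were chosen after values were seen. Alternatives were the TSS window, the TSS set, the gene set and the region length. Python 3.11.15, numpy 2.4.6, pandas 2.3.3, scipy 1.17.1, Biopython 1.88 and matplotlib 3.10.9 were used.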

Additional observations from a re-analysis of the deposited data

How the results depend on the processing

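The count of members at 1 μM remained 0 of 9 under all 5 alternatives, and at 2.5 μM it was 1 under 4 of them. With a window of 10 kb it was 2, since MGA was added through the transcript MGA-212 near its 3′ end. The share of all genes at 2.5 μM, 5.30%, was 6.35% with 10 kb, 4.89% where the region had to cover the TSS, 4.84% with the gene start only and 10.8% in protein-coding genes. At 1 μM it was 0.411% with 10 kb, 0.290% with the gene start only and 0.674% in protein-coding genes, in place of 0.360%. These shares move because more or fewer positions, or other genes, are counted. The median distance of the members at 2.5 μM, 140 kb, was 152 kb from the gene start only, and 17 of 27 single-gene distances kept their value under an alternative, with MGA moving most, from 9.35 kb to 152 kb. The wider lists gave 20 genes under each of the 3 alternatives run. No paired analysis was possible because there is only 1 library per condition. A stricter FDR could not be tried, since the lists carry no value per region, and depth limits which regions could be called.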

Other observations

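Counted promoters were described further by their CpG content, with no test. At 2.5 μM, a region was found for 2.87% of protein-coding genes with a ratio of observed to expected CpG under 0.4, for 5.80% between 0.4 and 0.6, for 13.6% between 0.6 and 0.8, and for 22.9% from 0.8 upward (exact 95% interval 21.5% to 24.4%). MXI1, with a ratio of 0.59, fell between 0.4 and 0.6. MXD4, MNT and MGA had ratios of at least 0.8 and no region, and MYC, with 0.77, belonged to the class below. By GC content the share was 7.91% between 65% and 70% and 5.19% above 70%, the class of MXD4. Genes that share a region are not independent, so these intervals are too narrow, and the values describe 1 library per condition.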
